A study of Mus musculus with 31 samples.

Results

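The complement components and receptors examined here are 9 genes, C1qa, C1qb, C1qc, C4b, C3, Cfb, Cfp, C3ar1 and C5ar1, taken by symbol from the 24421 gene symbols of each count file. All 9 were found in every file, and all 9 passed the filter on low counts, which kept 13039 genes. RNA-seq read counts were made from 4 cell types sorted from the heart in Balb/c mice, 8 to 12 weeks old, either in the steady state (SS) or after a myocardial infarction (MI) made by lasting ligation of the left anterior descending artery. The cell types were CD11c-negative monocyte-derived cells (MF, called macrophages in the labels), CD11c-positive monocyte-derived cells (moDC), and the conventional dendritic cells cDC2 and cDC1. Each of the 8 groups had 4 libraries, except MI cDC2 with 3, so 31 libraries in all. All mice are of 1 strain and no mutant allele or agent is named. The sources used here do not state the time after ligation, the sex or whether SS mice had sham surgery, so surgery and infarction cannot be told apart. Whether a replicate is 1 animal or a pool is not given either, and p-values therefore measure the spread between samples.

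Complement is a system of plasma proteins, made in part by tissue macrophages, that marks microbes, dead cells and debris for removal. In the classical pathway C1q, built from the A, B and C chains that C1qa, C1qb and C1qc encode, binds its target, and C4 (encoded by C4b) is cleaved next. All pathways meet at C3. Factor B (Cfb) supplies the protease of the alternative pathway, and properdin (Cfp) stabilises its convertase. The fragments C3a and C5a act on the receptors encoded by C3ar1 and C5ar1, which attract and activate leukocytes. Macrophages are a known source of C1q in many tissues, whereas the liver makes most plasma C3.

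Levels are CPM, the count per library total (reads in genes, scaled by TMM factors) in units of 1e-06. The totals ran from 9148624 to 16531349. The sorted populations were set against marker lists. Summed CPM of 7 cDC1 markers lay at 5913 to 7321 in cDC1 libraries and at 328 to 793 in all others. Summed CPM of 6 cDC2 markers was 3682 to 5314 in cDC2, against 1687 to 2615 in MF and moDC. Summed CPM of 9 macrophage markers was 10506 to 14313 in MF, 6713 to 9820 in moDC, 2995 to 6102 in cDC2 and 383 to 820 in cDC1. Macrophage markers were thus present in cDC2 libraries. Reads in no feature took 11.6% to 16.9% in SS libraries numbered 1 and 4 and 6.42% to 9.26% in those numbered 2 and 3.

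The 3 C1q genes lie side by side on the minus strand of chromosome 4 (GRCm38, GENCODE M21), with 3 exons each: C1qb at chr4:136880129-136886187, C1qc at chr4:136889804-136893065 and C1qa at chr4:136895917-136898803. They span 18675 bases together. C4b (chr17:34728380-34743882, 41 exons), C3 (chr17:57203970-57228136, 41 exons) and Cfb (chr17:34856374-34862518, 18 exons) lie on the minus strand of chromosome 17. Also on the minus strands are C3ar1 (chr6:122847138-122856161, 2 exons), C5ar1 (chr7:16246743-16259540, 2 exons) and Cfp (chrX:20925454-20931555, 9 exons). Exons of Cfb overlap those of Gm20547, and 1248 of the 5305 stretches of 75 bases in the C4b transcript (23.5%) also occur in transcripts of the copy C4a. Counts of these 2 genes are uncertain to the extent that counting split or dropped such reads.

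The 250 bases before the RefSeq start (GRCm38.p6, minus strand, 5′ to 3′) are shown for 3 members whose levels peaked in different cells: C1qb, highest in MF, C3, highest in SS in moDC, and Cfp, highest in cDC2. They are chr4:136886201-136886450, chr17:57228137-57228386 and chrX:20931556-20931805. Capitals mark matches, on either strand, to GAGGAA (a PU box, the core read by the myeloid factor PU.1), TGCTGA (a half-site of Maf factors) and TTGCNNAA (a C/EBP site). These matches do not overlap each other.
C1qb: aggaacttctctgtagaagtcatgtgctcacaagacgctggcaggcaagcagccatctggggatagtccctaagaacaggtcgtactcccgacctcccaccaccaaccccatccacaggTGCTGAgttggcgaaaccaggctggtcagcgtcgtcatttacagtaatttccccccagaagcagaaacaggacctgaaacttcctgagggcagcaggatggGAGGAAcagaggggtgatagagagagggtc
C3: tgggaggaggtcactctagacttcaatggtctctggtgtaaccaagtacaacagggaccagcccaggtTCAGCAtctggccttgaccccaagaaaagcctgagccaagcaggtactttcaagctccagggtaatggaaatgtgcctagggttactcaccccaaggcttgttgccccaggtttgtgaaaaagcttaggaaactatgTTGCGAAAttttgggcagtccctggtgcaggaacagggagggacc
Cfp: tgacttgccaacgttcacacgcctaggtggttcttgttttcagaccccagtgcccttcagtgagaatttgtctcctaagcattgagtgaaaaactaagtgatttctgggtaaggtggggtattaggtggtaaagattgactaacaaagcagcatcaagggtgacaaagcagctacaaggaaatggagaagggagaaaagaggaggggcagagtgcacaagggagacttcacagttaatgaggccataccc
C1qb held 1 PU box at bases 221 to 226 and 1 Maf half-site at bases 120 to 125. C3 held 1 Maf half-site at bases 69 to 74 and 1 C/EBP match at bases 206 to 213, and Cfp held none of these motifs. Of 32851 promoter windows of the same length, 23.3% held a PU box, 16.1% a Maf half-site and 9.56% a C/EBP match. A loose NF-kB motif (GGG and CC with 5 bases of any kind between them), searched on both strands and not capitalised, matched 2 times in C1qb, 4 times in C3 and 1 time in Cfp, and was found in 45.8% of all windows. Of the other members in the table, C1qc held 1 PU box, and C3ar1 and C5ar1 held 1 Maf half-site each.

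**Figure D1:**
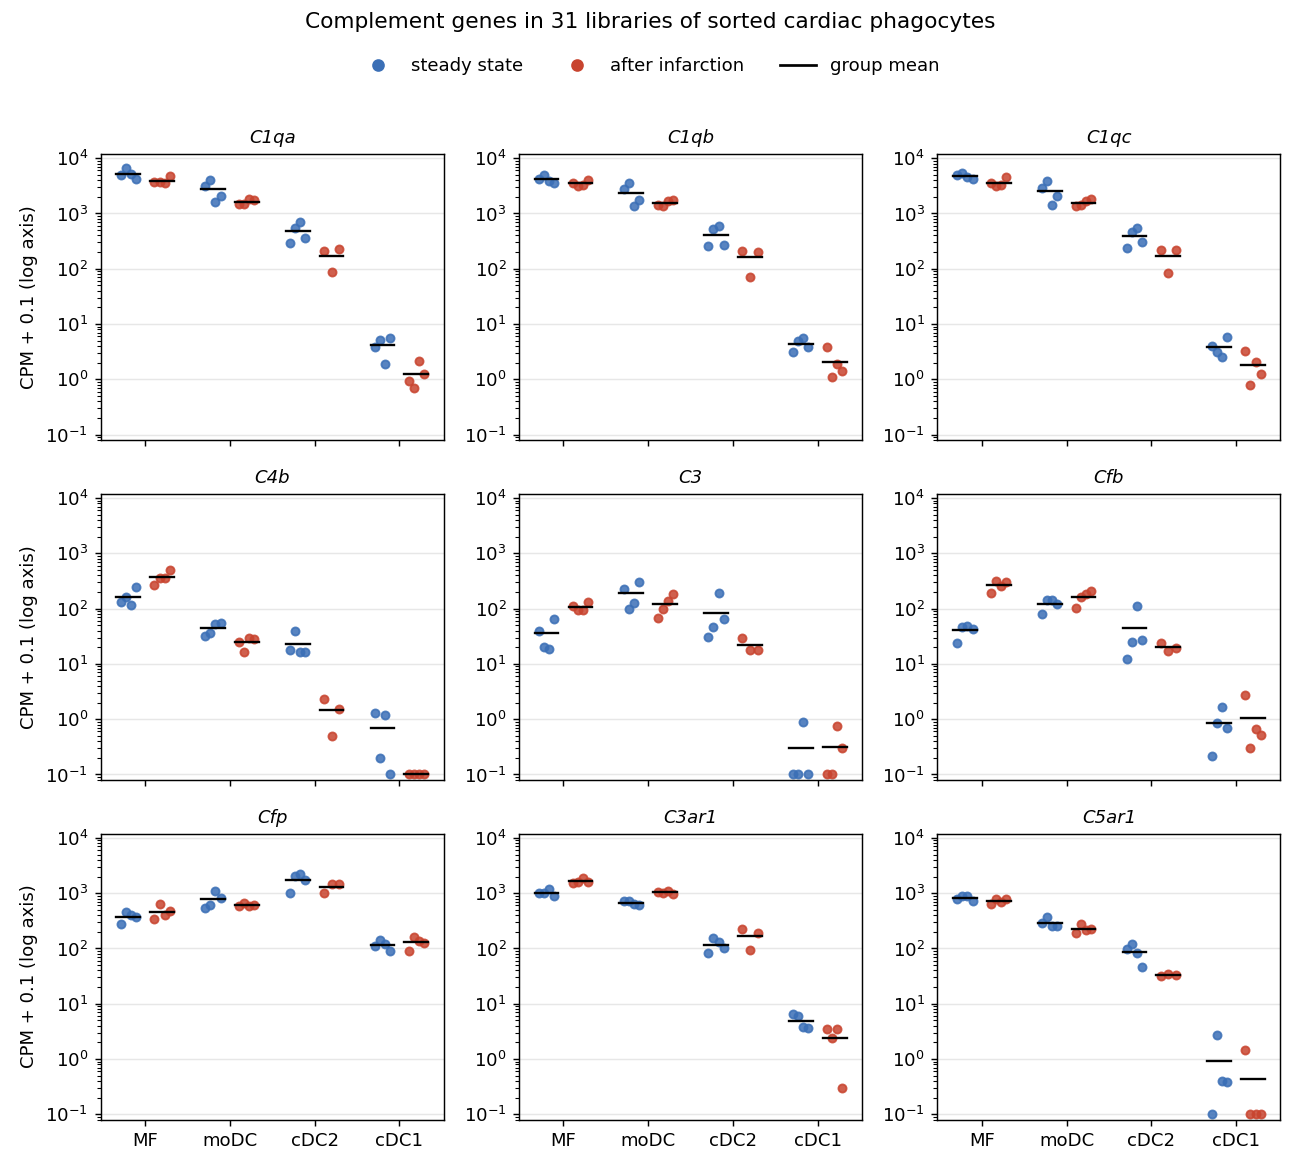
CPM plus 0.1 (log axis) of each of the 9 genes in all 31 libraries, by cell type; blue points are SS libraries, red points MI libraries and black bars group means. C1qa, C1qb, C1qc and C5ar1 step down from MF to cDC1, Cfp peaks in cDC2, and Cfb is at 194 to 319 CPM in MI MF libraries against 23.5 to 48.2 in SS.

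Between cell types, cDC1 was below MF, moDC and cDC2 for all 9 genes in both states. In SS 21.9%, 18.9% and 16.4% of all genes were lower in cDC1 than in those cells, and in MI 24.5%, 21.0% and 16.2%. With summed neutrophil markers as a covariate, Cfp in cDC1 did not pass in edgeR against MF (adjusted p = 0.0773 in SS and 0.288 in MI). Nor did it pass against moDC in MI (0.108), and C4b did not pass against cDC2 in MI (0.0708). Between moDC and MF in SS, C3, Cfb and Cfp were higher in moDC, and C1qa, C1qc, C5ar1 and C4b lower, 7 of 9 where 12.9% of all genes differed (8.56% higher, 4.34% lower). With a stromal marker sum (fibroblast, endothelial and mural) as a covariate 0 of these 7 passed. The fibroblast list in that sum includes Gsn, which phagocytes also express. Fibroblast markers summed to 511 to 595 CPM in SS MF and 753 to 900 in SS moDC. Without Gsn they summed to 34.4 to 97.0 and 28.0 to 51.9. The sums with Gsn do not overlap, so that fit cannot separate stromal RNA from the cell type. The lower genes did not shrink in that fit. C1qa went from log2 -0.94 to -1.38, C1qc from -0.91 to -1.24, C5ar1 from -1.50 to -1.93 and C4b from -1.90 to -2.27. The higher genes shrank, C3 from 2.41 to 1.81, Cfb from 1.60 to 0.87 and Cfp from 1.03 to 0.41. The share of all genes in that fit is not reported here. Mural markers summed to 38.6 to 343 CPM in SS moDC and 8.04 to 41.9 in SS MF, and their part in the 7 differences was not tested. In MI 5 of 9 differed, each lower in moDC (10.8% of all genes, 6.65% higher and 4.17% lower). Between cDC2 and MF, Cfp was higher and 6 genes lower in cDC2 in SS (35.2% of all genes, 19.1% higher and 16.2% lower). In MI Cfp was higher and the other 8 lower (26.4%, 13.8% higher and 12.6% lower). Against moDC, cDC2 was higher for Cfp and lower for 6 genes in SS (15.4%, 7.35% higher and 8.05% lower) and for 8 in MI (10.1%, 4.49% higher and 5.66% lower).

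After infarction 2 of the 9 genes rose in MF (Cfb and C4b) and 0 fell, where 7.39% of all 13039 tested genes changed, 4.01% upward and 3.37% downward. At an unadjusted p under 0.05 C3, C3ar1, C4b and Cfb were higher there and none of the 9 was lower. DESeq2 called 1 of the 9 (Cfb), and 1253 of all genes. In moDC 0 of 9 passed in edgeR, where 4.84% of all genes changed, 1.52% upward and 3.32% downward. In DESeq2 0 of 9 passed there, and 901 of all genes. At an unadjusted p under 0.05 there were 4 in moDC (C1qa, C1qc and C4b lower, C3ar1 higher). The shares of all genes given here are at adjusted p. No share was computed at unadjusted p, so counts at that threshold cannot be set against all genes. In cDC2 6 of 9 fell (the C1q genes, C4b, C3 and C5ar1) and 0 rose, where 11.0% of all genes changed, 4.41% upward and 6.63% downward. At an unadjusted p under 0.05 there were 7 in cDC2, with Cfb, all lower. DESeq2 called 5 in cDC2, and 1857 of all genes, where edgeR called 1440. Without MI cDC2 replicate 2 the cDC2 count was 2 (923 of all genes), and against SS libraries 1 and 4 alone it was 1 (1018 of all genes). In cDC1 1 of 9 fell (C1qa) and 0 rose, where 8.88% changed, 2.16% upward and 6.73% downward. At an unadjusted p under 0.05 there were 5 in cDC1, all lower (the C1q genes, C3ar1 and C4b). DESeq2 called 4 there, and 1443 of all genes, where edgeR called 1158. The median log2 change of the 9 genes was 0.29 in MF, -0.61 in moDC, -1.33 in cDC2 and -1.09 in cDC1, beside -0.03 over all genes in each.

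The infarction effect, the log2 change from SS to MI, was compared between cell types. It differed among the 4 cell types for 4 of 9 genes (C4b, Cfb, C3 and C3ar1), and for 6.80% of all genes. It was lower in cDC2 than in MF for 3 genes (C4b, C3 and Cfb; 3.05% of all genes) and than in moDC for C4b (0.491%). It was lower in cDC1 than in MF for C3ar1 and C4b (3.23%), and for C3ar1 lower than in moDC (1.23%) and cDC2 (2.61%). The C4b call between cDC1 and MF was lost without MI cDC1 replicate 2 or 3 (adjusted p = 0.0518 and 0.0512) and without SS cDC1 replicate 1 or 3 (0.114 and 0.0577). Between moDC and MF 0 of 9 passed in edgeR (0.291% of all genes). At an unadjusted p under 0.05 there were 3, C3 (log2 -2.24, adjusted p = 0.270), C4b (adjusted p = 0.112) and Cfb (-2.30, 0.182), each lower in moDC. The share of 0.291% is at adjusted p and is not the share for these 3.

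**Figure D2:**
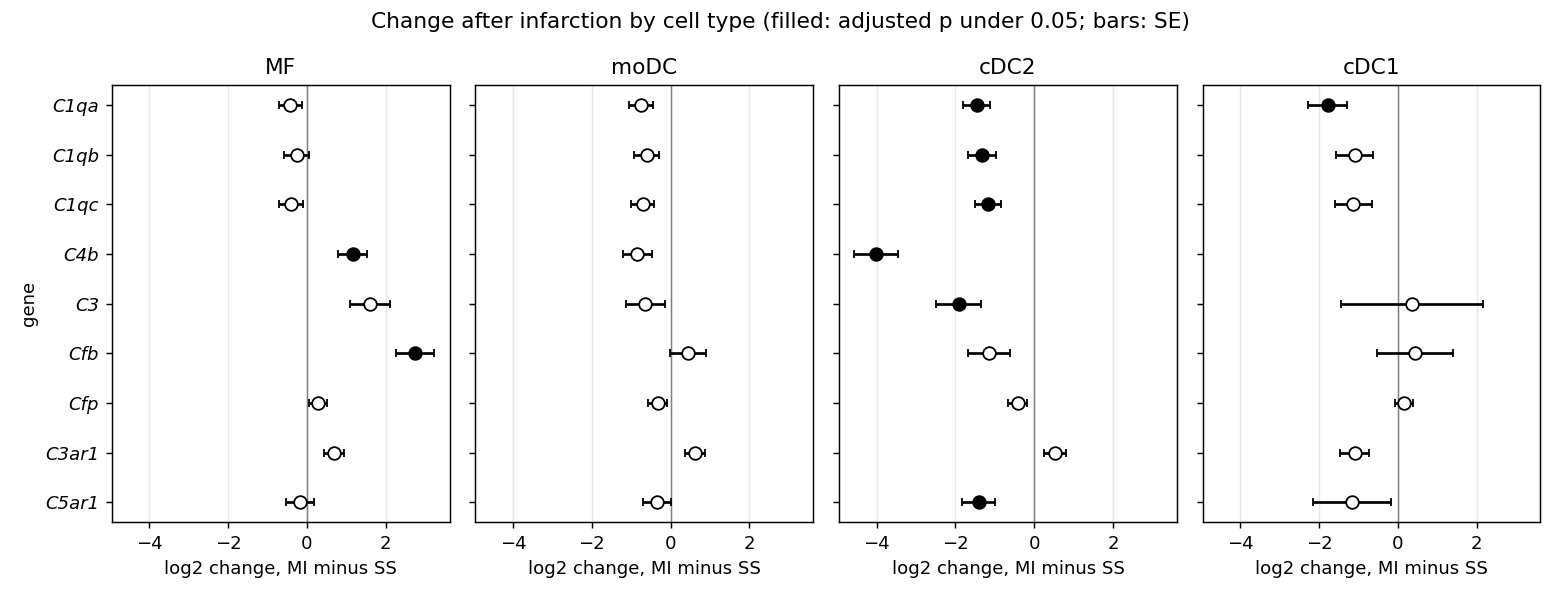
Log2 change of each gene after infarction (MI minus SS, edgeR) in the 4 cell types, with bars of 1 SE; filled points passed at adjusted p under 0.05. Cfb (2.74) and C4b (1.16) are filled on the right in MF and 6 genes are filled on the left in cDC2; C4b in cDC1, with 0 reads in MI, is not drawn.

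The C1q genes were highest in macrophages and lowest in cDC1. C1qa stood at 5009, 6667, 5159 and 4233 CPM in the 4 SS MF libraries. It was 3157, 4111, 1616 and 2078 CPM in SS moDC. SS cDC2 libraries held 294, 546, 714 and 354 CPM. SS cDC1 libraries held 3.67, 5.02, 1.79 and 5.56 CPM. No 2 of these 4 groups overlapped, and C1qb (4208 ± 632, 2376 ± 1002, 405 ± 168 and 4.24 ± 1.07, SD, n = 4) and C1qc (4786 ± 572, 2544 ± 1021, 387 ± 141 and 3.75 ± 1.39) took the same order. In the edgeR quasi-likelihood test each step of that order passed for C1qa and C1qc. For C1qb the step from MF to moDC did not (log2 -0.82, SE 0.31, adjusted p = 0.0868). The MF to moDC steps of C1qa (log2 -0.94, adjusted p = 0.0406) and C1qc (-0.91, 0.0449) did not pass without any 1 of SS MF replicates 1 to 3 and SS moDC replicates 3 and 4 (adjusted p up to 0.142 and 0.157), nor for C1qc without SS moDC replicate 1 or SS cDC2 replicate 2 (0.0541 for the first). Neither passed with the stromal covariate (0.358 and 0.434). With the replicate number as a block the C1qb step passed (log2 -0.85, adjusted p = 0.0402). C1qb also passed without SS moDC replicate 2 (0.0274) or MI cDC2 replicate 2 (0.0379). After MI the same order held, and all steps passed for all 3 genes. In bulk libraries fewer cells of a type and less RNA per cell cannot be told apart, here and in every result that follows.

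The C1q chains kept a narrow range of ratios in MF, moDC and cDC2. Scaled to transcript length, C1qa was at 1.04 to 1.38 times C1qb (median 1.20) and C1qc at 0.797 to 1.08 times C1qb (median 0.944) over the 23 libraries of MF, moDC and cDC2. Over the same libraries C1qb ran from 72.0 to 5061 CPM. In the 8 cDC1 libraries, with few reads, these ratios ran from 0.226 to 1.57 and from 0.411 to 1.38. Across all 31 libraries the log2 CPM of the chains correlated at 0.995 to 0.998 (Pearson r, a description: the points share libraries and cell types).

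In infarcted hearts the C1q genes were lower in cDC2. C1qa was at 206, 85.9 and 229 CPM in the 3 MI cDC2 libraries, all below the 4 SS libraries. It fell 2.74-fold (174 ± 76.9, n = 3, against 477 ± 191, n = 4, log2 -1.46, SE 0.34, adjusted p = 0.00506). C1qb fell 2.51-fold (161 ± 77.3 against 405 ± 168, adjusted p = 0.0126) and C1qc 2.24-fold (172 ± 77.8 against 387 ± 141, adjusted p = 0.0220). Replicate 2 was the lowest MI library for all 3 chains. Without it C1qa stayed past the threshold (log2 -1.13), whereas C1qb (adjusted p = 0.0930) and C1qc (0.147) did not pass. C1qc also did not pass without SS cDC2 replicate 2 (0.0658) or 3 (0.0769). Against SS libraries 1 and 4 alone, C1qa was lower by a log2 of -0.89 (adjusted p = 0.0849). C1qb was lower there by -0.69 (0.269) and C1qc by -0.65 (0.283), so none of the chains passed. With only the 2 groups in the fit, C1qb (0.0531) and C1qc (0.0613) did not pass.

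C1q levels in MF and moDC libraries did not pass the test for MI. C1qa was 3755, 3717, 3572 and 4720 CPM in MI MF, which overlaps the SS range (log2 -0.42, 95% interval -1.04 to 0.20, adjusted p = 0.489). In MI moDC it was 1459, 1469, 1815 and 1782 CPM (log2 -0.75, interval -1.37 to -0.12, adjusted p = 0.172), and SS libraries 3 and 4 of that cell type (1616 and 2078) lay nearest to it. The MI effect on C1qa did not pass a test of difference among the 4 cell types (adjusted p = 0.294).

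In cDC1 the C1q genes were near the limit of counting. All 4 SS cDC1 libraries together held 189 C1qa reads and the 4 MI libraries 47. C1qa fell from 4.01 ± 1.68 to 1.15 ± 0.637 CPM (log2 -1.78, SE 0.50, adjusted p = 0.0235), with overlapping groups. The call was lost without any 1 of MI replicates 1, 2 and 4 and SS replicates 2 and 4 (adjusted p = 0.0596 to 0.0846), and with only the 2 groups in the fit (0.116). C1qb (4.24 to 1.97 CPM, adjusted p = 0.173) and C1qc (3.75 to 1.71, 0.146) did not pass.

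Macrophage markers moved with C1q in cDC2 and cDC1. The summed CPM of 9 macrophage markers was 4625 to 6102 in SS cDC2 and 2995 to 3612 in MI cDC2. Of the 9 markers in cDC2, 5 fell with MI, among them Adgre1, Csf1r, Cd14 and Maf, while Fcgr1 rose, and Mertk, Cd68 and Mrc1 did not pass. The sum was 614 to 820 in SS cDC1 and 383 to 486 in MI cDC1. No defining macrophage marker was at 0 in either cell type. With the log2 marker sum as a covariate, in a fit of the cDC libraries alone, the C1qa change in cDC2 became 0.09 (adjusted p = 0.971), and 0 of the 9 complement genes passed (against 3 in that fit without the covariate). Over all 12125 genes of that fit the covariate took the count from 1474 to 210 in cDC2 and from 1040 to 138 in cDC1. The sums do not overlap between SS and MI, so that fit cannot separate the marker level from MI.

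The share of the MF level puts C1q beside those markers. In SS, cDC2 libraries held 9.06% of the MF level of C1qa, 9.63% of C1qb and 8.08% of C1qc, and after MI 4.41%, 4.57% and 4.78%. For the macrophage markers in cDC2 the share ran from 2.71% (Maf) to 87.3% (Cd68) in SS and from 0.906% (Maf) to 80.5% (Cd68) in MI. In cDC1 the C1q share was 0.0761% to 0.101% in SS, with only Mrc1 of the markers lower (0.0451%). After MI it was 0.0291% to 0.0559% in cDC1, and Mrc1 stood at 0.0353%.

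**Figure D3:**
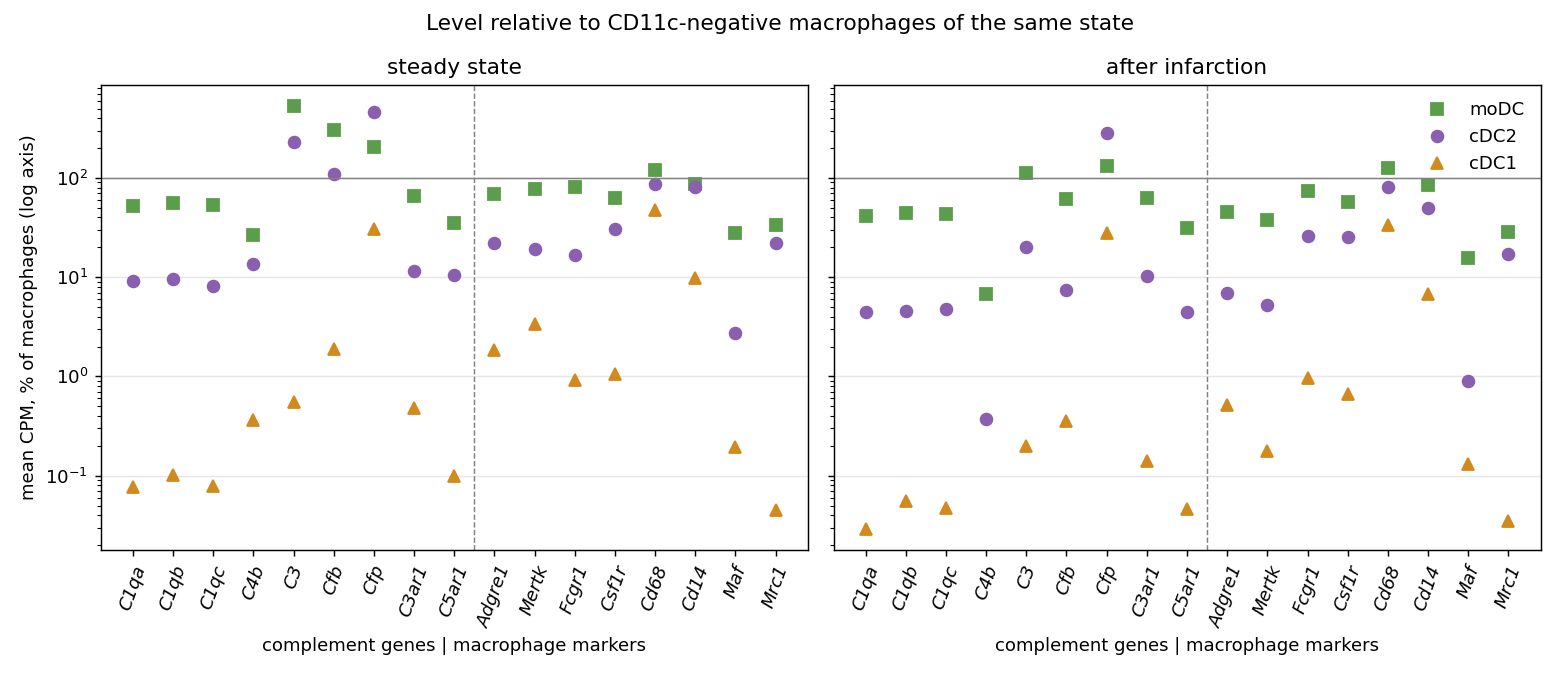
Mean CPM in moDC (squares), cDC2 (circles) and cDC1 (triangles) as a percentage of the MF mean of the same state (log axis), for the 9 complement genes left of the dashed line and 8 of the macrophage markers right of it; values of 0 are not drawn. Cfp in cDC2 is above the line at 100% in both states, C3 in cDC2 is above it in SS only (231% against 20.1%), and C1q in cDC1 is at or below 0.101%.

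C4b, coding for the C4 protein that C1q-bound proteases cleave, went up in macrophages and down in cDC2. MF libraries held 130, 162, 117 and 249 CPM in SS. They held 264, 356, 359 and 490 CPM in MI. The groups do not overlap, and the rise was 2.23-fold (367 ± 92.9 against 165 ± 59.4, log2 1.16, SE 0.36, adjusted p = 0.0488). That call is at the threshold. It was lost in 17 of the 31 fits that leave out 1 library (log2 1.00 to 1.44 over all 31), among them those without any 1 MI MF library or SS MF replicate 1, 2 or 3, the other 10 libraries being of other cell types, and under 8 other settings (adjusted p = 0.0527 to 0.236), DESeq2 among them (0.0910).

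In cDC2 C4b almost disappeared after MI. SS libraries were at 17.5, 39.6, 16.0 and 16.5 CPM. MI libraries were at 2.26, 0.397 and 1.45 CPM, 43 reads in all against 872. The fall was 16.1-fold (log2 -4.01, SE 0.55, adjusted p = 1.81e-05), and it passed in each of the 31 fits that leave out 1 library (log2 -4.57 to -3.58). With the macrophage marker covariate it was -3.18 (adjusted p = 0.366). Summed fibroblast markers without Gsn, which phagocytes also express, were 6.68 to 28.5 CPM in SS cDC2 and 4.43 to 5.84 in MI. With the stromal covariate, which includes Gsn, the fall of C4b passed (log2 -4.18, adjusted p = 1.15e-04). Fibroblast markers with Gsn summed to 770 to 1064 CPM in SS cDC2 and 1146 to 1453 in MI. That sum moved opposite to the sum without Gsn, so this fit cannot decide the part of stromal RNA.

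C4b in moDC was 31.6, 36.6, 52.9 and 55.2 CPM in SS and 25.1, 16.0, 28.9 and 28.5 in MI. These groups do not overlap, but the change did not pass (log2 -0.84, SE 0.37, adjusted p = 0.219). In cDC1 C4b had 32 reads in SS, nearly all in replicates 1 (1.20 CPM) and 3 (1.09 CPM), and 0 reads in MI, at least 9.07-fold lower against 3 reads over the group (adjusted p = 0.0515). The MI effect on C4b differed among the 4 cell types (adjusted p = 5.21e-05). It was lower in cDC2 than in MF by a log2 of -5.17 (SE 0.65, adjusted p = 1.68e-05) and than in moDC by -3.17 (0.66, 0.0137). The last call was lost without MI cDC2 replicate 2 (log2 -2.76, adjusted p = 0.0841) or 3 (0.0522). C4a, the copy that shares sequence with C4b, was at 9.93 ± 3.48 in SS MF and 20.2 ± 4.40 in MI MF, which did not pass (adjusted p = 0.318).

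C3, the protein on which all pathways converge, was highest in moDC in SS. Libraries held 224, 100, 127 and 309 CPM in moDC, 30.9, 46.2, 189 and 64.7 in cDC2, and 39.4, 19.7, 18.2 and 66.1 in MF. The moDC level exceeded that of MF 5.30-fold (adjusted p = 0.00239), a call lost with the stromal covariate (log2 1.81). The cDC2 level, with its wide spread, did not differ beyond the test from moDC (adjusted p = 0.112) or MF (0.0694). C3 in cDC1 came to 8 reads in SS and 9 in MI over all libraries.

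After MI the C3 means of moDC and MF lay close together (adjusted p = 0.893). MI MF libraries held 111, 95.6, 95.3 and 132 CPM, all above the SS MF libraries. The rise was 3.03-fold but missed the threshold (108 ± 17.3 against 35.9 ± 22.4, log2 1.60, SE 0.51, 95% interval 0.54 to 2.66, adjusted p = 0.0586). It passed without SS MF replicate 4 (log2 2.08, adjusted p = 0.0237), without SS cDC2 replicate 1 or 3 (0.0417 and 0.0248), and with only the 2 groups in the fit (0.0315). MI cDC2 libraries held 29.8, 17.6 and 18.0 CPM, below every SS cDC2 library. C3 fell 3.79-fold there (log2 -1.92, SE 0.58, adjusted p = 0.0320). The fall did not pass without SS cDC2 replicate 3, the library at 189 CPM (log2 -1.12, adjusted p = 0.181), or without any 1 of the 3 MI libraries (0.0645 to 0.134), or with the stromal covariate (0.0513). In moDC C3 was 67.9, 100, 135 and 184 CPM after MI (log2 -0.64, adjusted p = 0.566). The MI effect on C3 differed among the cell types (adjusted p = 0.0236) and was lower in cDC2 than in MF (log2 -3.52, SE 0.78, adjusted p = 0.00668). The test over the 4 cell types did not pass without any 1 of MI cDC2 replicates 2 and 3 and SS MF replicates 2 and 3 (0.0560 to 0.0669).

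Cfb, coding for factor B of the alternative pathway, showed the clearest rise in macrophages. SS MF libraries stood at 23.5, 45.9, 48.2 and 43.0 CPM. MI MF libraries stood at 194, 319, 252 and 308 CPM. Cfb rose 6.68-fold (268 ± 57.7 against 40.1 ± 11.3, log2 2.74, SE 0.49, adjusted p = 6.78e-04). The call held in all 31 fits that leave out 1 library (log2 2.55 to 2.87). Summed neutrophil markers were 78.6 to 189 CPM in SS MF and 144 to 186 in MI MF, and fibroblast markers without Gsn 34.4 to 97.0 and 53.0 to 91.8. Other lists moved in the same libraries: resident macrophage markers summed to 2043 to 2329 CPM in SS and 488 to 819 in MI, and shared dendritic cell markers to 10.3 to 19.4 in SS and 37.6 to 82.6 in MI, with Flt3, Dpp4 and Itgax called. Of 6 monocyte markers Ccr2 rose, their sum being 2313 to 3354 in SS and 3252 to 3796 in MI. The part of these cells in the rise was not tested. The Cfb rise passed with the neutrophil or the stromal sum (Gsn included) as a covariate.

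Cfb in the other cells did not pass the test for MI. moDC libraries had 80.5, 141, 144 and 122 CPM in SS and 101, 164, 184 and 212 in MI (log2 0.44, 95% interval -0.51 to 1.39, adjusted p = 0.701). SS cDC2 libraries had 12.0, 25.0, 112 and 26.7 CPM, 1 of them far above the others, and MI cDC2 libraries 23.3, 17.0 and 19.4 (log2 -1.14, adjusted p = 0.181). Without SS cDC2 replicate 3 the cDC2 value was -0.09, and against SS libraries 2 and 3 alone it passed (-1.78, adjusted p = 0.0227). In SS the MF level was below that of moDC (3.04-fold, adjusted p = 0.0254; 0.0864 without SS MF replicate 1, 0.0537 without SS MF replicate 4 and 0.0609 without SS moDC replicate 3). In MI the difference did not pass (0.387), nor did its change between states (log2 -2.30, 0.182). The MI effect on Cfb differed among the cell types (adjusted p = 0.00642) and was lower in cDC2 than in MF (log2 -3.88, SE 0.73, 0.00161).

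Cfp, coding for properdin, was the 1 member with its peak in cDC2. SS cDC2 libraries held 1017, 2047, 2257 and 1706 CPM. SS moDC held 549, 621, 1091 and 821, SS MF 282, 448, 405 and 373, and SS cDC1 110, 142, 121 and 88.3 CPM. Only the lowest cDC2 and the highest moDC library overlap. Cfp in cDC2 was 4.66-fold above MF (adjusted p = 1.94e-08) and 2.28-fold above moDC (5.75e-04). After MI the means were 1317 ± 259 in cDC2, 611 ± 39.3 in moDC, 460 ± 123 in MF and 128 ± 30.7 in cDC1, and in none of the 4 cell types did the MI change of Cfp pass (log2 -0.42 to 0.29). The cDC2 level in MI passed against moDC and MF, but not with the stromal covariate (adjusted p = 0.216 against moDC and 0.413 against MF). Fibroblast markers with Gsn summed to 1146 to 1453 CPM in MI cDC2, 868 to 972 in MI moDC and 586 to 715 in MI MF. Those ranges do not overlap, so that fit cannot separate stromal RNA from the cell type. After MI the difference of moDC from MF did not pass (log2 0.41, adjusted p = 0.294), and the change of that difference between states did not pass either (log2 -0.62, 0.739). Per length, Cfp had the highest level of the 9 genes in SS cDC2 (1074 CPM per kb) and in SS cDC1 (70.3), whereas in SS MF it ranked after C1q and both receptors (230 against 5064 for C1qa).

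The mean of C3ar1, coding for the receptor for C3a, was higher after MI in both monocyte-derived populations, short of the threshold. Its SS and MI groups there do not overlap. How many of all genes have groups that do not overlap was not computed, here or for the other members. C3ar1 was 993, 991, 1210 and 895 CPM in SS MF and 1530, 1566, 1889 and 1584 in MI MF. It was 727, 722, 635 and 610 CPM in SS moDC and 1045, 1019, 1104 and 974 in MI moDC. In the test over all groups neither change passed (MF log2 0.68, SE 0.26, adjusted p = 0.117; moDC 0.62, 0.26, 0.184). With only the 2 groups of a cell type in the fit both passed (adjusted p = 0.00246 and 0.00299), and without MI cDC1 replicate 4 in the fit the MF change passed (0.0301). In cDC2 C3ar1 was 82.5 to 155 CPM in SS and 91.8 to 224 in MI (log2 0.52, adjusted p = 0.255). In cDC1 it was 4.86 ± 1.50 and 2.30 ± 1.49 CPM (log2 -1.09, 0.0656, and 0.0177 in DESeq2). The MI effect differed among the cell types (0.0424), cDC1 lying below MF (log2 -1.77, SE 0.45, adjusted p = 0.0204), moDC (-1.71, 0.0453) and cDC2 (-1.61, 0.0452). The last 2 of these calls and the test over the 4 cell types are at the threshold and were lost when single libraries were left out (adjusted p up to 0.117, 0.150 and 0.135). The call against MF was lost in 1 of those fits, without SS cDC1 replicate 1 (0.0588). It was also lost with the stromal (0.251) and with the neutrophil covariate (0.0942), as were the calls against moDC and cDC2. In cDC1 C3ar1 rested on 242 reads in SS and 94 in MI.

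C5ar1, the receptor for C5a, passed for MI in cDC2 only among the 4 cell types, and the test of its MI effect among the cell types did not pass (adjusted p = 0.431). It was 787, 886, 902 and 724 CPM in SS MF and 648, 792, 697 and 769 in MI MF (log2 -0.18, adjusted p = 0.846). In moDC it was 292 ± 56.1 and 229 ± 37.9 CPM (log2 -0.35, 0.681). SS cDC2 libraries held 97.0, 121, 82.5 and 47.0 CPM and MI cDC2 libraries 31.6, 33.9 and 32.4, a fall of 2.66-fold (log2 -1.41, SE 0.41, adjusted p = 0.0225). That fall did not pass without any 1 MI cDC2 library or SS cDC2 replicate 2 (0.0770 to 0.0907), or in DESeq2 (0.168). cDC1 libraries held 34 C5ar1 reads in SS and 13 in MI. Within each state C5ar1 stepped down from MF over moDC and cDC2 to cDC1, and every step passed in edgeR. The step from MF to moDC did not pass in DESeq2 in either state (adjusted p = 0.0932 in SS and 0.0596 in MI). In SS it did not pass in edgeR with the stromal covariate either (adjusted p = 0.236).

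By Pearson r of log2 CPM over the 31 libraries, a description in which the points share cell types, the genes most like C1qa outside C1q were led by Csf1r (0.987), the macrophage growth factor receptor gene. Tmem37 was nearest to C1qb (0.992) and C1qc (0.991). C3ar1 was nearest to Sepn1 (0.985), Apobec1 and Trem2 (both 0.982), and C5ar1 to C1qb (0.987), Rtp4 and Msr1 (both 0.985). C4b was nearest to Slco2b1, Sepp1 (both 0.964) and Igf1 (0.959). C3 and Cfb had the same nearest gene, Fam20c (0.968 and 0.965), followed by Pgd and Daglb for C3 and by Apobec1 and B3gnt7 for Cfb. Cfp was nearest to Adora2b (0.958), Lilra6 (0.951) and S100a4 (0.949). Cfp correlated with the other members at 0.47 to 0.79.

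A further 56 complement genes were listed and found, of which 27 passed the filter on low counts. In MF 3 of the 27 rose and 2 fell, where 4.01% of all genes rose and 3.37% fell. In moDC 0 rose and 3 fell (1.52% and 3.32% of all genes), and in cDC2 0 rose and 4 fell (4.41% and 6.63%). In cDC1 1 rose and 5 fell (2.16% and 6.73%). Their median log2 change was 0.05 in MF, -0.36 in moDC, -0.64 in cDC2 and -1.83 in cDC1, beside -0.03 over all genes in each. The members of the alternative pathway beside Cfb and Cfp did not pass the filter. Cfd, coding for factor D, had 2 reads in SS MF and 1 in MI MF. Hc, coding for C5, had at most 10 reads in any group.

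Of 9 further receptors tested in MF, 3 integrin genes rose, Vsig4 fell and 5 did not pass. The integrin genes Itgam and Itgb2, which together give complement receptor CR3, went from 423 ± 104 to 805 ± 46.2 CPM (adjusted p = 3.31e-04) and from 299 ± 18.5 to 450 ± 51.0 (0.00621). Itgax, which encodes CD11c, the marker whose absence defines these cells in the labels, rose from 7.50 ± 2.91 to 40.9 ± 15.8 CPM (9.52e-08). Vsig4, a C3b-binding receptor of resident macrophages, fell from 203 ± 63.8 to 11.3 ± 2.17 CPM (2.89e-07). It also fell in moDC (23.2 ± 7.63 to 1.93 ± 1.28, 1.02e-05) and cDC2 (2.60 ± 1.60 to 0.253 ± 0.237, 0.00347). In cDC1 Itgb2 rose (876 ± 61.0 to 1205 ± 56.7, 0.0311), Itgam fell (22.2 ± 5.13 to 12.7 ± 3.19, 0.00316) and Cd93 fell (16.3 ± 8.22 to 0.545 ± 0.591, 2.09e-07). Scarf1, a C1q-binding scavenger receptor, fell there also (0.0441; named after its value was seen). All 6 resident macrophage markers fell in MF, Vsig4 among them, their sum going from 2043 to 2329 CPM in SS to 488 to 819 in MI.

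Early components and soluble regulators with a call were lower after MI. C2, the partner of C4 in the classical convertase, fell in moDC (16.7 ± 7.32 to 1.12 ± 1.08, adjusted p = 0.00567). In MF C2 was at 40.8 ± 8.02 in SS and 11.3 ± 4.75 in MI, which did not pass (0.138). Colec12, a collectin receptor, fell in cDC2 (133 ± 37.3 to 29.8 ± 12.1, 3.12e-07), as did Fcna, coding for a ficolin (7.61 ± 4.59 to 2.40 ± 0.635, 0.0395). Serping1, coding for the C1 inhibitor, had 52 reads in SS cDC2 and 2 in MI (ratio 20.5, exact 95% interval 5.40 to 174, counting error only) and fell in cDC1 (210 reads to 7, 0.00416). Vtn had 111 reads in SS moDC, 86 of them in replicate 2 and 0 in replicate 4, and 0 reads in MI (0.0490).

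Markers of stromal cells moved with several of these. In moDC, summed mural markers ran from 38.6 to 343 CPM in SS and 14.1 to 17.5 in MI, and endothelial markers from 91.9 to 331 and 52.3 to 75.6. In cDC1 mural markers ran from 90.6 to 323 in SS and 0.717 to 2.96 in MI, and fibroblast markers without Gsn from 14.4 to 51.1 and 1.11 to 2.88; Cspg4, Kcnj8, Myh11, Pdgfra, Dpt and Mfap5 were at 0 in MI cDC1. In cDC2 mural markers ran from 9.30 to 52.6 and from 6.84 to 10.8. The part of stromal RNA in the falls of Cd93, Serping1, Vtn and C2 was not tested.

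**Figure D4:**
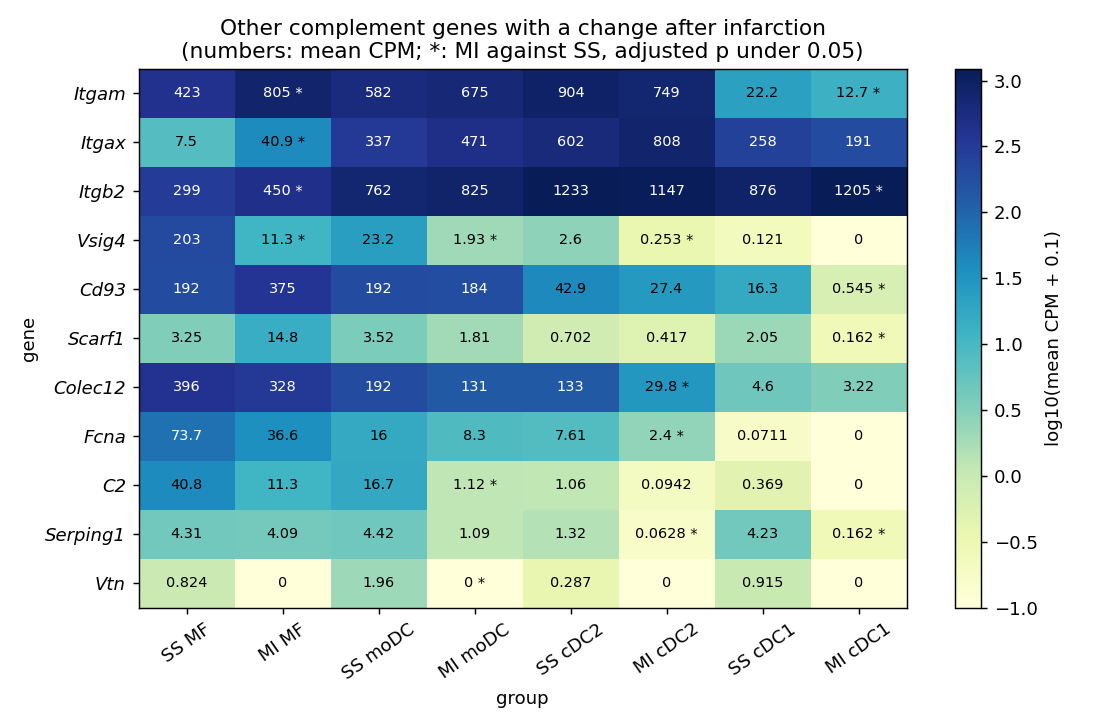
Mean CPM in the 8 groups of 11 further complement genes that passed for MI against SS in at least 1 cell type; colour gives log10 of mean CPM plus 0.1, and a star marks an MI group that differed from SS of the same cell type. Itgam, Itgax and Itgb2 are starred as higher in MI MF, and Vsig4 as lower there.

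Of the 8 further complement genes with the highest group means, Calr and Lrp1 did not pass for MI in any cell type. Calr, coding for calreticulin, a C1q receptor on the cell surface, reached 1366 CPM in SS cDC2, and Lrp1, its partner in uptake of dying cells, 400 CPM in MI MF.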

How the data were processed

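Each of the authors' deposited files holds raw read counts of 1 library for 24421 symbols. Its 5 entries for reads in no gene stayed out of library sizes and tests. Per the labels' protocols, 4 ng of RNA was amplified with SMART-Seq v4 and read as 75 nt single reads. The submitters' processing notes name mm10, SAMtools 0.1.18, TopHat2 2.1.0, Trimmomatic 0.35 and FastQC 0.11.4. The sources used here do not give the counting tool, the annotation or whether strand was used.

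CPM used TMM factors. The test was edgeR 4.0.16's robust quasi-likelihood test (R 4.3.3) in 1 model with 8 group means over 31 libraries, after filterByExpr (minimum count 10). P-values were adjusted by Benjamini-Hochberg over 13039 genes, with a threshold of 0.05 on the adjusted p. The fit was tested on simulated data. DESeq2 1.42.0 was an alternative. A group at 0 reads was set to 3 reads. Promoter sequences came from a supplied set placed at RefSeq starts, and that set held 6 of the 9 genes. The members, lists and tests were chosen with earlier results of these data known. Further complement genes were named by adjusted p (up to 4 per direction and cell type, mean of at least 1 CPM) and by level (up to 8), and similar genes by the 3 highest r. In SS, deviations of same-numbered libraries correlated over 0.1 in all 4 pairs of MF with moDC (0.12 to 0.20) and of MF with cDC2 (0.11 to 0.16), so numbers were taken to pair these groups, from the data alone, and no others. The fits have no block unless said. Some listed genes enter counts and sums but are not reported here by name.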

Additional observations from a re-analysis of the deposited data

Results flagged for a closer look

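In 8 of 63 groups of 4 libraries tested, 1 library lay apart from its group by Dixon's test, which chance gives in about 1 of 20 groups. Macrophage libraries after MI included C1qa at 4720 CPM in replicate 4 and C3ar1 at 1889 CPM in replicate 3. SS cDC2 libraries included C4b at 39.6 CPM in replicate 2 and Cfb at 112 CPM in replicate 3. The other 4 were cDC1 libraries with few reads: C3 at 0.794 CPM in SS replicate 3, C5ar1 at 2.65 CPM in SS replicate 2, and C5ar1 at 1.34 CPM and Cfb at 2.67 CPM in MI replicate 1.

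The infarction effect differed among the 4 cell types in edgeR for C3 (adjusted p = 0.0236), C3ar1 (0.0424), C4b (5.21e-05) and Cfb (0.00642). Between pairs of cell types, the effect in cDC2 was lower than in MF for C3 (log2 -3.52), C4b (-5.17) and Cfb (-3.88), and lower than in moDC for C4b (-3.17). In cDC1 it was lower than in MF for C3ar1 (-1.77) and C4b (-7.00, against a group at 0 reads, so the size is not a measurement), and for C3ar1 lower than in moDC (-1.71) and cDC2 (-1.61).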

How the results depend on the processing

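Of 9 genes, the count changed in MF (2) was 1 with DESeq2 size factors, upper-quartile factors, no filter, a stromal or neutrophil marker covariate, SS libraries 1 and 4 alone, or DESeq2, and 4 with only the 2 groups in the fit. In moDC (0) that last fit gave 1. Over all genes the MF count was 963, and from 694 (neutrophil covariate) to 1253 (DESeq2) in these settings. The moDC count over all genes was 631, and 612 with only the 2 groups in the fit. In cDC2 (6) the count was 1 against SS libraries 1 and 4, and, in settings chosen after seeing the data, 3 with cDC libraries only and 0 with the macrophage covariate as well. Over all genes the cDC2 count was 1440, and 1018, 1474 and 210 in these settings. In cDC1 (1) the count of members was 2 with upper-quartile factors or a minimum count of 50, 4 in DESeq2, and 0 with the stromal or macrophage covariate, SS libraries 2 and 3, or only the 2 groups. Over all genes the cDC1 count was 1158, and 1189 with upper-quartile factors, 1065 with a minimum count of 50 and 1443 in DESeq2. It was 267 with the stromal and 138 with the macrophage covariate, 937 against SS libraries 2 and 3 and 894 with only the 2 groups. With the stromal covariate 0 of 7 remained between moDC and MF in SS and 3 of 8 differences of MI effects between cell types. The neutrophil covariate left 4 of those 8, and 2 of 4 in the test over all cell types (579 of all genes, against 887). Without a length scale the median C1qc to C1qb ratio was 1.04. The cause of these changes was not tested.

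With 1 library left out, the counts ran from 1 to 3 in MF, 2 to 6 in cDC2 and 0 to 3 in cDC1, from 4 to 8 for moDC against MF in SS, 2 to 4 for the test over all cell types and 4 to 8 for its pairs. The lowest counts came without MI cDC2 replicate 2 (cDC2) and SS MF replicate 1 or SS moDC replicate 3 (moDC against MF). For all cell types they came without MI cDC2 replicate 3 or SS MF replicate 2, and for the pairs without SS cDC1 replicate 1. Over all genes the counts in these fits ran from 675 to 1078 in MF, 882 to 1588 in cDC2 and 810 to 1205 in cDC1. For the test over all cell types they ran from 714 to 974.

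Signs turned under the macrophage covariate in cDC2 (log2 C1qa 0.09, C1qb 0.43, C1qc 0.05, C5ar1 0.19, Cfb 1.23, Cfp 0.08) and cDC1 (C1qb 0.64, C1qc 0.02, C5ar1 0.50). Against SS libraries 2 and 3 they turned for C3 in moDC (0.10) and, in cDC1, C3 (-0.78), Cfb (-0.30) and Cfp (-0.04), and against 1 and 4 for Cfb in cDC2 (0.05) and C5ar1 in cDC1 (1.42). C3 in cDC1 was -1.09 with only the 2 groups. In SS, Cfb in cDC2 against MF was -0.57 with the stromal and -0.02 with the neutrophil covariate, and C3 in moDC against MF in MI -0.23 with the stromal one. With 1 library left out, C3 in cDC1 ran from -1.20 to 4.33, C5ar1 from -6.01 to 0.93 and Cfb from -0.80 to 1.09. C3 in moDC against MF in MI ran from -0.11 to 0.36 and Cfb in cDC2 against MF in SS from -0.92 to 0.44.

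Numbers did not pair SS with MI libraries, whose deviations within a cell type correlated at -0.05 to 0.07 over 15 pairs. With the number as a replicate block C3 in MF passed (log2 1.70, adjusted p = 0.0260) and C4b in MF did not (1.17, 0.0528). Within a state, number blocks gave 8 calls in place of 7 between moDC and MF in SS and turned Cfb in cDC2 against MF in SS (-0.23, 0.679). They changed no other call between cell types of a state. Of the 8 differences of MI effects, C3ar1 between cDC1 and cDC2 (adjusted p = 0.0537) and C4b between cDC1 and MF (0.0561) did not pass with these blocks. With the number as a block over both states the C3ar1 difference did not pass either (0.0536). Of 31 libraries 22 correlated best with their own number, a hint from the data only. At these depths values under about 1 CPM rest on few reads, and floors cover counting error only.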
